A study of Homo sapiens with 6 samples.

Results

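The genes described here mostly encode proteins that process, remodel or bind RNA. The question was where Argonaute touched their own transcripts in human kidney cells and whether TGFbeta1 treatment changed it. Members were chosen by name: every crosslink site whose gene symbol begins with HNRNP, SRSF, RBM, PABP, CELF, MBNL, CNOT, CPSF, CPEB or YTHD, or with DDX, DHX or SF3 and a further digit or letter. The rule took 589 of 16230 sites and 94 of 4361 named genes. It used no measured value. Names that join overlapping genes were taken by their first symbol, so sites listed under another gene before HNRNPL, RBMS3 or DDX39B were not members, and 1 member name joined RBM4 with its read-through RBM14-RBM4.

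Argonaute PAR-CLIP was done in HK2 cells, an established human line labelled as WT and derived from kidney proximal tubule epithelium. In this assay cells take up 4-thiouridine, ultraviolet light joins it to the bound protein, and the joined T is read as a base change in the sequenced cDNA. Both groups were serum starved for 24 h, given 100 µM 4-thiouridine during the final 20 h, and then exposed to ultraviolet light of 365 nm. The groups were 2 anti-Argonaute libraries from cells exposed to TGFbeta1 at 20 ng/mL for 24 h and 2 from cells labelled as control. Another 2 libraries, pulled down with IgG, were not analysed here, and the values therefore have no measured background to be set against. Whether the 2 replicates of a group were grown as separate cultures is not stated in the labels, and the p-values therefore reflect how far these 2 libraries lie apart, which could be technical variation alone.

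RNA-binding proteins decide how a transcript is spliced, cut, tailed, translated and destroyed. Heterogeneous nuclear ribonucleoproteins (HNRNP) and SR proteins (SRSF) bind nascent transcripts and steer splice-site choice. SF3 proteins are parts of the U2 particle of the spliceosome, and most DDX and DHX proteins are helicases that remodel RNA. CPSF proteins belong to the machinery that cuts the transcript before its tail is added, and PABP proteins coat the tail. The CNOT complex removes the tail, which is the step that Argonaute and its TNRC6 partners call on when a microRNA represses a messenger RNA. CELF, MBNL, CPEB and YTHD proteins recognise particular sequences or marks in messenger RNA. A microRNA guides Argonaute mainly through its seed, bases 2 to 8 of its mature sequence, which pairs with a complementary stretch usually found in a 3′ UTR.

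The let-7 family took the most crosslinked reads of any seed with a full match of 7 nt in these genes, so its sites are shown first. The mature sequences below, from RefSeq with build GRCh38.p14, have their seed in capitals, and all 18 microRNA names looked for were found there.
hsa-let-7a-5p: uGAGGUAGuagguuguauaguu
hsa-let-7i-5p: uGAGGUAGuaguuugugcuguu
hsa-miR-98-5p: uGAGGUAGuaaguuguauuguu
The windows of sites are from the deposited table (hg38, RNA-sense strand, 5′ to 3′, written as DNA). Each is 29 nt long with the crosslinked T at position 15, and the capitals mark the stretch that the authors matched to a seed.
DDX3X, coding sequence, chrX:41345447-41345475, plus strand: taggaagagttggctCTACCTCtgaaaac
RBMS1, 3′ UTR, chr2:160273005-160273033, minus strand: tgtatgatcagttatCTACCTCagagtct
CNOT11, coding sequence, chr2:101269044-101269072, plus strand: actacagctgttgatCTACCTCctgaatt
SRSF11, intron, chr1:70228588-70228616, plus strand: tcctaagatgaccatCTACCTCagtagat
In each of these 4 windows the match begins on the base after the crosslinked T. The flanks differ, and the region differs as well, with coding, untranslated and intronic letters carrying the same 7 nt. The other let-7 matches of this kind were in RBM12B and CPEB1 (3′ UTR), CPSF6 (intron) and SRSF12 (coding sequence), which makes 8 sites in 8 genes.

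The miR-30 seed had the most sites with a full match, 12 in 10 genes, and 4 of the genes below encode SR proteins or the U2 particle protein SF3B1. The windows of 6 of the 12 sites are shown.
hsa-miR-30a-5p: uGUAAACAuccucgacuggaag
hsa-miR-30e-5p: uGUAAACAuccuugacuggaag
SF3B1, coding sequence, chr2:197392967-197392995, minus strand: agaatgttgcaatatTGTTTACaggtaag
SRSF7, 3′ UTR, chr2:38745084-38745112, minus strand: agggaaaagttatttTGTTTACattatta
SRSF10, 3′ UTR, chr1:23966691-23966719, minus strand: agagttataataaatTGTTTACtctgcct
SRSF1, coding sequence, chr17:58005886-58005914, minus strand: gtatgttatgctgaTGTTTACcgagatgg
CNOT9, 3′ UTR, chr2:218594819-218594847, plus strand: ttgtcgactggcacTGTTTACaagtctgt
DHX36, 3′ UTR, chr3:154273221-154273249, minus strand: acattctgtttctttTGTTTACaaaatag
In SRSF1 and the CNOT9 site shown, the crosslinked T is the first letter of the match itself, and in the other 4 windows the match starts 1 nt further on.

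The remaining windows are 6 of the 12 sites with the highest mean crosslinking, together with the highest site of the CPEB genes. They are shown because their values between the groups are described further on. The windows of the leading sites of PABPC1 and RBM12B, whose mean was higher still, are not shown.
HNRNPA1 with a miR-24 match, 3′ UTR, chr12:54286962-54286990, plus strand: tgtgaagacctttatCTGAGCCactgtac
MBNL1 with a miR-181 match, 3′ UTR, chr3:152462931-152462959, plus strand: ggatctgacagagaTGAATGTgccaagca
MBNL1 with no match, 3′ UTR, chr3:152462892-152462920, plus strand: tatttttaatgtaatagattgtaagacgt
HNRNPDL with a miR-103a match, coding sequence, chr4:82428282-82428310, minus strand: gtgcttttcaaagATGCTGCtagtgttga
DDX21 with a miR-29a match of 6 nt, 3′ UTR, chr10:68983573-68983601, plus strand: gtaggctggataaatGGTGCTtaaatggt
DDX3X with no match, 3′ UTR, chrX:41349694-41349722, plus strand: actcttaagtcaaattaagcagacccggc
CPEB2 with a miR-25/92 match, 3′ UTR, chr4:15069302-15069330, plus strand: attctgtgttgtgatGTGCAATactgttt
The matching microRNAs, again with bases 2 to 8 in capitals, are these.
hsa-miR-24-3p: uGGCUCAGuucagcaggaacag
hsa-miR-181a-5p: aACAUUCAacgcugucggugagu
hsa-miR-103a-3p: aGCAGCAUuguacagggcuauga
hsa-miR-29a-3p: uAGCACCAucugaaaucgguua
hsa-miR-92a-3p: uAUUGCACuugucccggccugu
In DDX21 the authors listed a match of 6 nt, because their miR-29a seed is placed 1 base earlier in the microRNA than bases 2 to 8. The window also holds TGGTGCT, the complement of bases 2 to 8, which begins at the crosslinked T. The MBNL1 windows with and without a match lie on the same transcript, with crosslinked positions 152462945 and 152462906 on chromosome 3.

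The 4 libraries held 5293208 and 3415699 reads (TGFbeta1) and 1714445 and 1926255 reads (control), with 36958 to 74969 crosslinked reads at the listed sites. Of the member sites, 72 (12.2%) were crosslinked in both TGFbeta1 libraries and neither control library, and 4 (0.679%) the other way. The same held for 1802 (11.5%) and 189 (1.21%) of the 15641 other sites. Of the markers used to check the label, KRT18 and CDH2 of 7 epithelial genes had a site, and none of the fibroblast, endothelial or blood genes did. The table lists a gene only where Argonaute crosslinked, so an unlisted marker may still be expressed.

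Sites in RNA processing genes made up a nearly constant share of the crosslinked reads. They held 2180 of 74969 and 1940 of 72206 reads in the TGFbeta1 libraries, which is 2.91% and 2.69%, against 1071 of 36958 and 1540 of 53835 in the control libraries, which is 2.90% and 2.86%. The mean share was 2.80 ± 0.156% in TGFbeta1 cells and 2.88 ± 0.026% in control cells (SD, n = 2 each), and the ranges of the groups overlap. The exact Clopper-Pearson 95% intervals of the single libraries run from 2.57% to 3.07% in all, and cover counting error only, since reads without molecular identifiers are not independent molecules.

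Most genes had few sites, and the reads were concentrated in part of the genes. Of the 94 genes, 26 had 1 site and 18 had 10 or more, with a median of 3 sites, against 2 in other genes. The median site had 6 crosslinked reads over the 4 libraries, against 7 at other sites. The 12 genes of highest mean level held 52.1% of the member reads. Of neighbouring sites in the same gene, 75 of 495 pairs lay within 30 nt of each other.

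The sites lay in coding sequence more often than those of other genes. By the authors' annotation, 246 of 589 sites (41.8%, exact 95% interval 37.7 to 45.9%) were in coding sequence, against 4005 of 15641 other sites (25.6%, 24.9 to 26.3%). Introns held 91 sites (15.4%) of these genes, against 22.3% of other sites. The 3′ UTR held 222 sites (37.7%, interval 33.8 to 41.7%) in these genes and 39.1% of other sites. Noncoding, intergenic, antisense and pseudogene classes hold none of the members, and without those classes 28.4% of other sites were coding, 43.3% (interval 42.5 to 44.2%) were in the 3′ UTR and 24.8% in introns. In reads the coding share was 34.1% and 32.0% in TGFbeta1 libraries and 29.2% and 32.5% in control libraries for the RNA processing genes, and 16.0 to 18.9% in the 4 libraries for other sites. It was thus higher in the RNA processing genes in 4 of 4 libraries. Sites of a gene share its transcript and are not replicates, so this difference carries no test. Between the groups, the coding share of the members averaged 33.0 ± 1.53% in TGFbeta1 cells and 30.8 ± 2.29% in control cells (SD, n = 2 each), with overlapping libraries.

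**Figure D1:**
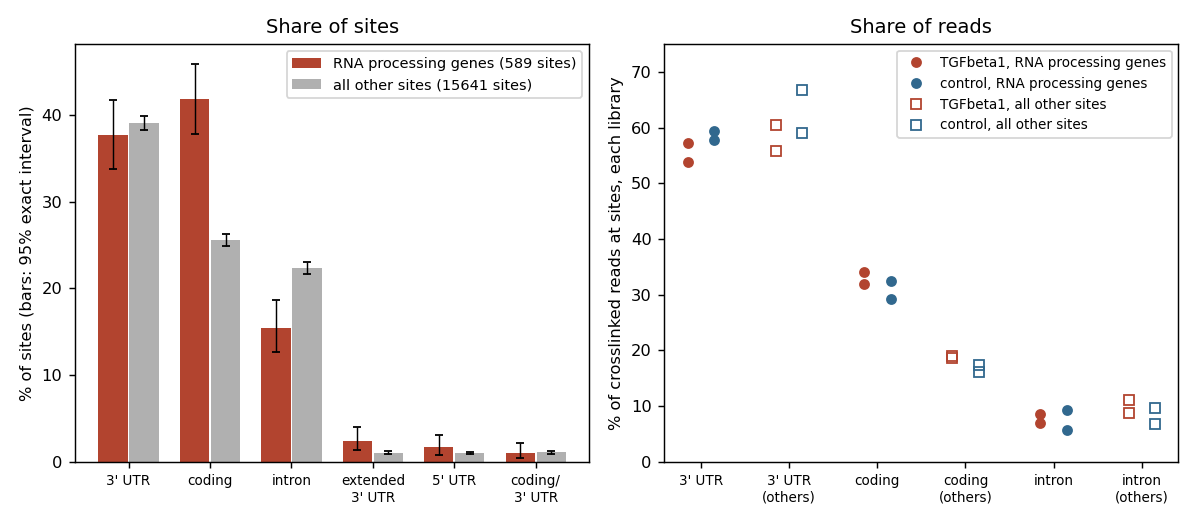
Left, the share of sites (%) by annotated region for the 589 sites of RNA processing genes and the 15641 other sites, with exact 95% intervals. Right, the share of crosslinked reads (%) in each library for both sets; in the coding class all 4 libraries lie between 29.2 and 34.1% for RNA processing genes and between 16.0 and 18.9% for other sites.

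The families differed in where they were crosslinked. SF3 genes had 23 of 32 sites (71.9%) in coding sequence, DHX genes 13 of 19 (68.4%) and PABP genes 21 of 31 (67.7%). Single genes held most of these coding sites, 17 in SF3B1, 9 in DHX15 and 19 in PABPC1. PABPC4L and PABPN1 had sites in the 3′ UTR only, and PABPC1L in an intron only. At the other end, CPEB genes had 9 of 10 sites in the 3′ UTR, and MBNL genes had 11 of 16 there and none in coding sequence. MBNL1 held 15 of those 16 MBNL sites. The HNRNP genes, the largest family, held 200 sites in 16 genes and 1711 crosslinked reads, with 44.0% of sites coding and 32.5% in the 3′ UTR. The reads could lie elsewhere than the sites: PABP genes had 22.6% of their sites but 63.7% of their reads in the 3′ UTR, because of a single PABPC1 site.

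**Figure D2:**
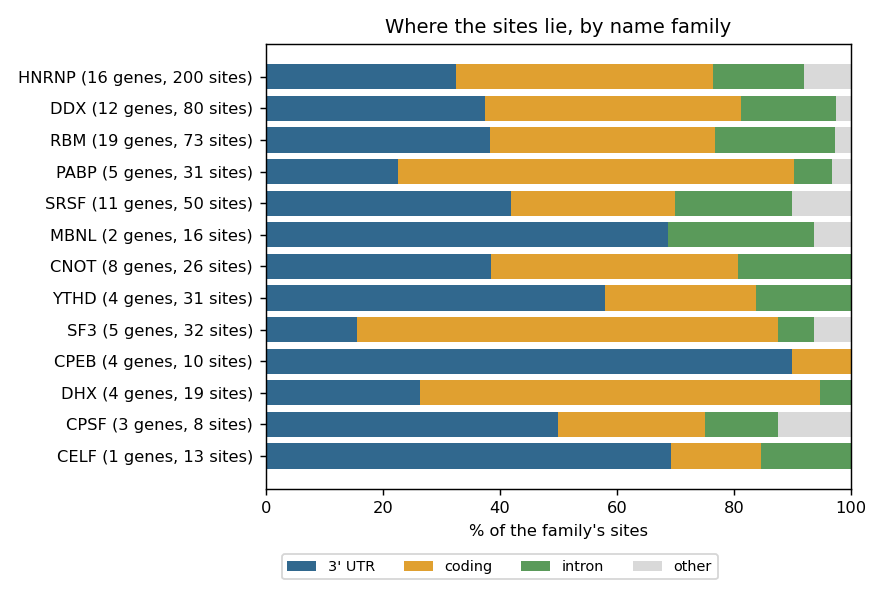
The share (%) of each name family's sites in the 3′ UTR, coding sequence, introns and other regions, over all 4 libraries. Summed over genes, SF3, DHX and PABP sites are mostly coding, while CPEB, CELF and MBNL sites are mostly 3′ UTR. SF3B1, DHX15, PABPC1 and MBNL1 each hold most sites of their family, and CELF is CELF1 alone.

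A seed match to one of the authors' microRNAs was listed for 349 of 589 sites (59.3%, exact 95% interval 55.2 to 63.3%), against 63.3% of other sites. A full match to bases 2 to 8 was listed for 93 sites (15.8%, interval 12.9 to 18.99%), against 18.9% of other sites. These 93 sites held 35.0% of the member reads, and the same class held 33.1% of the reads at other sites. In the 3′ UTR, sites with the full match adjacent to the crosslink had a median of 17 reads, against 6.5 at sites with no match. The medians at other 3′ UTR sites were alike, 18 and 7 reads. Any match was listed for 65.8% of the member 3′ UTR sites and 73.5% of others, and a full match for 20.3% and 27.3%. Matches were listed where a seed was near, so they describe letters and do not show which microRNA was bound.

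The let-7 matches took a smaller share of the member reads in TGFbeta1 cells. Full let-7 matches held 125 reads (5.73%) and 135 reads (6.96%) in TGFbeta1 libraries, against 98 reads (9.15%) and 152 reads (9.87%) in control libraries, and the groups do not overlap. At all other sites, full let-7 matches held 3.99% and 4.26% of reads in TGFbeta1 libraries, against 4.27% and 4.95% in control libraries. Without RBM12B, whose let-7 site held most of its reads, the shares in the other RNA processing genes were 3.95% and 4.17% in TGFbeta1 libraries, against 5.32% and 5.74% in control libraries. The miR-103a matches were at 4 sites and held 3.30% and 2.37% of member reads in TGFbeta1 libraries, against 1.21% and 1.43% in control libraries. At other sites the miR-103a share was 0.885% and 1.08% in TGFbeta1 libraries, against 1.11% and 1.24% in control libraries. Within the members, a single HNRNPDL site held 87 of the 153 miR-103a reads. The miR-423-3p match of a single PABPC1 site held 3.94% and 4.38% of member reads in TGFbeta1 libraries, against 6.35% and 6.17% in control libraries. Such shares can thus follow 1 site. The miR-30 matches held 2.202% and 4.54% in TGFbeta1 libraries, against 3.83% and 3.44% in control libraries, and overlap. These shares were read after the values were seen and carry no test.

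No RNA processing gene passed the test between the groups. Gene values are sums of crosslinked reads over a gene's sites, not divided by length, in TMM-scaled RPM, the reads of a library scaled to a common depth (scaled RPM). More Argonaute on a transcript and more of the transcript cannot be told apart in these values. The limma test across 1266 genes called 39 at a Benjamini-Hochberg adjusted p under 0.05, which is 3.08% of those tested: 20 (1.58%) were higher and 19 (1.5%) lower in TGFbeta1 cells. It called 0 of the 44 RNA processing genes that had enough reads. The 44 tested genes held 87.8% of the member reads, and the 50 untested ones had 2 to 48 reads each. At an unadjusted p under 0.05, 3 of 44 (6.82%) were lower and none higher, against 7.5% lower, 6.24% higher and 13.7% in either direction of all tested genes. On the recovered reads, edgeR (quasi-likelihood) and DESeq2 also called 0 of 44. The median log2 difference was -0.02 in the 44 genes, with a range of -1.27 to 0.74, and 0.02 over all tested genes. Both TGFbeta1 libraries lay above both control libraries for 7 of 44 genes, against 20.5% of all tested genes, and below them for 8 of 44, against 23.1%. An exact permutation test of 2 libraries against 2 cannot go below 0.33. On simulated counts of 1266 genes, 100 genes were changed by 1 on the log2 scale and 100 by 2. The limma test recovered 26% of those changed by 1 and 84.0% of those changed by 2, so smaller changes in these genes could be missed. More genes were changed there than the 39 called here, and recovery could be lower where fewer genes change.

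**Figure D3:**
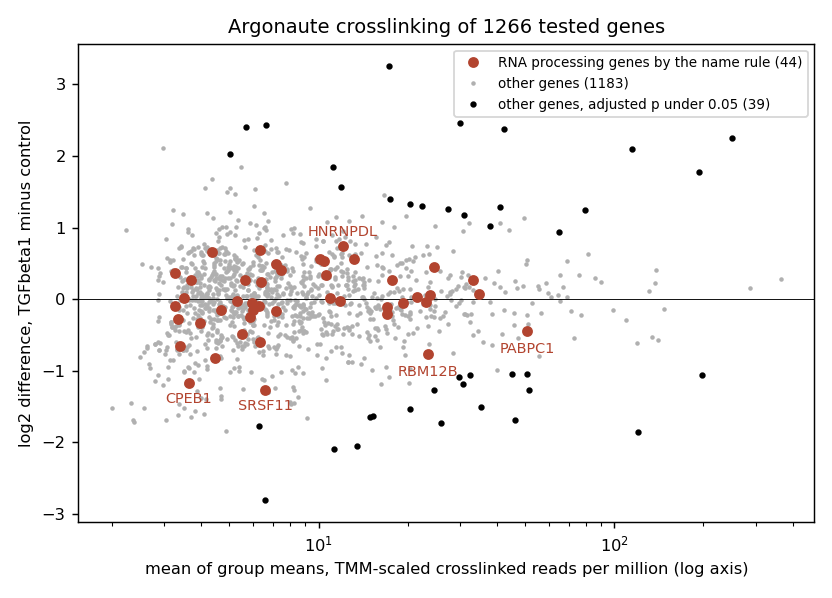
The log2 difference (TGFbeta1 minus control, on the log2(scaled RPM + 1) scale) of each tested gene against the mean of its group means (scaled RPM, log axis). The 44 RNA processing genes lie between -1.27 and 0.74 and none is among the 39 genes called, which are drawn in black.

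PABPC1 encodes the main cytoplasmic poly(A)-binding protein. It had 23 sites, 161 and 139 crosslinked reads in TGFbeta1 libraries and 110 and 150 in control libraries, equal to 45.7 and 39.6 scaled RPM in TGFbeta1 cells, against 60.8 and 56.2 scaled RPM in control cells. The treated libraries were both lower, with a log2 difference of -0.45 (limma adjusted p = 0.40). A single 3′ UTR site with a miR-423-3p match carried 59.6% of its reads, with 86 and 85 reads in TGFbeta1 libraries and 68 and 95 in control libraries. That site averaged 25.4 ± 1.56 scaled RPM in TGFbeta1 cells and 35.2 ± 3.46 in control cells (SD, n = 2 each; limma adjusted p over sites = 0.32). PABPC1 has near-identical copies in the genome, and how reads were shared among them is not given in the sources used here.

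RBM12B, an RNA-binding motif gene, was the member with the smallest unadjusted p. It had 52 and 69 reads in TGFbeta1 libraries and 56 and 76 in control libraries, or 14.8 and 19.6 scaled RPM in TGFbeta1 cells, against 31.0 and 28.5 scaled RPM in control cells. The log2 difference was -0.77 (limma across all genes, adjusted p = 0.19), so the groups do not overlap but the gene was not called. Its let-7 site in the 3′ UTR held 83.0% of the reads, with 41 and 57 reads in TGFbeta1 libraries and 44 and 68 in control libraries. At that site the mean was 14.5 ± 2.59 scaled RPM in TGFbeta1 cells and 23.9 ± 0.65 in control cells (SD, n = 2 each; limma adjusted p over sites = 0.16).

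SRSF11, an SR-related splicing factor, had 18 and 7 reads in TGFbeta1 libraries and 22 and 19 in control libraries. These equal 5.11 and 1.99 scaled RPM in TGFbeta1 cells and 12.2 and 7.12 scaled RPM in control cells, with a log2 difference of -1.27 (limma adjusted p = 0.22). Its intronic let-7 site, shown above, had 2 and 3 reads in TGFbeta1 libraries and 9 and 6 in control libraries, too few for the site test. CPEB1, which controls the length of poly(A) tails in the cytoplasm, had only its let-7 site, with 3 and 11 reads in TGFbeta1 libraries and 11 and 12 in control libraries. Its level was 0.852 and 3.13 scaled RPM in TGFbeta1 cells, against 6.08 and 4.498 in control cells, with a log2 difference of -1.17 (limma adjusted p = 0.34). SRSF11, CPEB1 and RBM12B are the 3 genes with an unadjusted p under 0.05, and each carries a full let-7 match. Such a match lies in 8 of the 94 genes, of which CNOT11 and SRSF12 were not among the 44 tested. How many of all tested genes carry one was not counted. In SRSF11 the let-7 site held only 20 of 66 reads, and its 3′ UTR site had 7 and 2 reads in TGFbeta1 libraries and 10 and 6 in control libraries. Of the other let-7 genes that were tested, CPSF6 had a log2 difference of -0.49, RBMS1 of -0.21 and DDX3X of 0.27 (limma adjusted p = 0.61, 0.81 and 0.71). This overlap was noticed after the values were seen.

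Among the other splicing regulators, HNRNPA2B1, which binds and sorts nuclear RNA, had 120 and 82 reads in TGFbeta1 libraries and 41 and 49 in control libraries. The levels were 34.1 and 23.3 scaled RPM in TGFbeta1 cells and 22.7 and 18.4 in control cells (log2 difference 0.45, limma adjusted p = 0.54). It had 33 sites, with 57.9% of its reads in coding sequence, and its leading site held 15.8%. HNRNPA1, a repressor of splice sites, averaged 24.0 ± 1.77 scaled RPM in TGFbeta1 cells and 23.5 ± 6.69 in control cells (SD, n = 2 each), with 85.9% of reads in the 3′ UTR. Its miR-24 site had 36 and 33 reads in TGFbeta1 libraries and 18 and 16 in control libraries. After scaling these were 11.1 and 9.43 scaled RPM in TGFbeta1 cells, against 9.95 and 5.51 in control cells, and overlap. A neighbouring site 22 nt away had 27 and 25 reads in TGFbeta1 libraries and 8 and 12 in control libraries. The log2 differences were 0.41 at the miR-24 site and 0.72 at the neighbour (limma adjusted p over sites = 0.63 and 0.38). HNRNPA1 also has many processed copies in the genome, so its reads are uncertain in the same way. HNRNPDL had 60 and 47 reads in TGFbeta1 libraries and 20 and 18 in control libraries, or 17.04 and 13.4 scaled RPM in TGFbeta1 cells, against 11.1 and 6.75 in control cells. This was the highest log2 difference of the 44 genes, 0.74 (limma adjusted p = 0.37). Its coding miR-103a site held 60.0% of the reads, with 40 and 26 reads in TGFbeta1 libraries and 8 and 13 in control libraries (log2 difference 0.96, limma adjusted p over sites = 0.19).

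HNRNPF and HNRNPU, an RNA-binding splicing factor and a scaffold protein of the nucleus, showed overlapping groups. HNRNPF averaged 22.03 ± 5.80 scaled RPM in TGFbeta1 cells and 21.1 ± 0.668 in control cells, and HNRNPU 18.9 ± 5.80 in TGFbeta1 cells and 19.6 ± 5.94 in control cells (SD, n = 2 each). HNRNPU had 35 sites, and its leading site held 8.76% of its reads. SF3B1, the U2 particle protein that contacts the branch point region, had 77 and 82 reads in TGFbeta1 libraries and 49 and 53 in control libraries. Its mean was 22.6 ± 1.04 scaled RPM in TGFbeta1 cells and 23.5 ± 5.11 in control cells (SD, n = 2 each), with 87.4% of its reads in coding sequence. The coding miR-30 site of SF3B1 held 29.5% of its reads, with 19 and 27 in TGFbeta1 libraries and 11 and 20 in control libraries. Its log2 difference was 0.05 (limma adjusted p over sites = 0.97).

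Of the helicases, DDX3X, which helps ribosomes scan structured messenger RNA, had 121 and 133 reads in TGFbeta1 libraries and 44 and 97 in control libraries. Its level was 34.4 and 37.9 scaled RPM in TGFbeta1 cells and 24.3 and 36.4 in control cells (log2 difference 0.27, limma adjusted p = 0.71). The leading DDX3X site, in the 3′ UTR with no match, had 42 and 53 reads in TGFbeta1 libraries and 13 and 31 in control libraries. The coding let-7 site had 23 and 25 reads in TGFbeta1 libraries and 9 and 24 in control libraries. After scaling, the log2 differences were 0.62 at the leading site and 0.12 at the let-7 site (limma adjusted p over sites = 0.33 and 0.90). DDX5, a helicase and transcriptional coregulator, averaged 19.5 ± 4.19 scaled RPM in TGFbeta1 cells and 15.9 ± 1.37 in control cells (SD, n = 2 each). DDX21, a nucleolar helicase, had 39 and 46 reads in TGFbeta1 libraries and 10 and 29 in control libraries (log2 difference 0.57, limma adjusted p = 0.55). Its site with the miR-29a match had 27 and 32 of those reads in TGFbeta1 libraries and 5 and 19 in control libraries, and both treated libraries lay above both control libraries (log2 difference 0.87, limma adjusted p over sites = 0.29). DHX15, which takes the spliceosome apart after use, averaged 6.396 ± 0.593 scaled RPM in TGFbeta1 cells and 8.02 ± 5.09 in control cells (SD, n = 2 each).

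**Figure D4:**
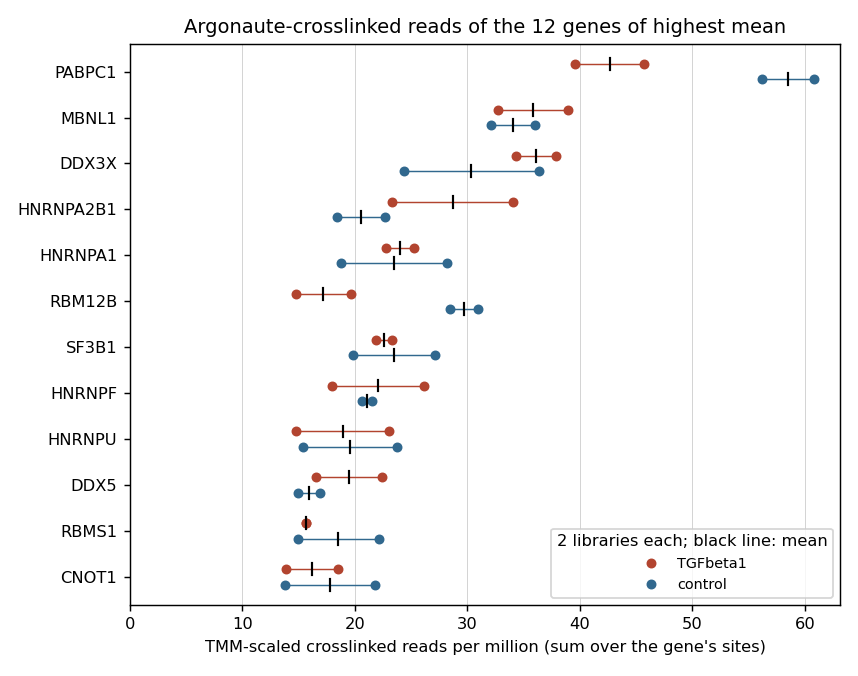
TMM-scaled RPM of crosslinked reads, summed over sites, in each library for the 12 RNA processing genes of highest mean, with the mean of each group as a black line. PABPC1 and RBM12B are lower in both TGFbeta1 libraries than in both control libraries, HNRNPA2B1 is higher in both after TMM scaling, and the groups of the other 9 genes overlap.

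MBNL1, a muscleblind splicing factor that binds YGCY-type motifs, had 137 and 115 reads in TGFbeta1 libraries and 58 and 96 in control libraries, with 89.2% of them in the 3′ UTR. Its level was 38.9 and 32.7 scaled RPM in TGFbeta1 cells and 32.1 and 36.0 in control cells (log2 difference 0.07, limma adjusted p = 0.93). The 3 leading MBNL1 sites had unlike values, and the differences between them were not tested. The site with no match had 33 and 34 reads in TGFbeta1 libraries and 3 and 21 in control libraries (log2 difference 1.23, limma adjusted p over sites = 0.14). By covering reads its log2 difference was 0.0081, and without control replicate 1 it was 0.41. The site with the miR-181 match, on the same stretch, had 33 and 21 reads in TGFbeta1 libraries and 25 and 13 in control libraries (log2 difference -0.03). The site with a miR-148 match of 6 nt had 27 and 22 reads in TGFbeta1 libraries and 11 and 32 in control libraries (log2 difference -0.16). CELF1, which binds GU-rich elements and promotes decay, averaged 10.9 ± 0.988 scaled RPM in TGFbeta1 cells and 10.9 ± 2.101 in control cells (SD, n = 2 each), with 91.3% of reads in the 3′ UTR.

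Genes of tail removal, cleavage and cytoplasmic control were likewise not called. CNOT1, the scaffold of the deadenylase complex, had 49 and 65 reads in TGFbeta1 libraries and 25 and 58 in control libraries, and its 3′ UTR site with a miR-27 match of 6 nt held 45.7% of them. The CNOT1 mean was 16.2 ± 3.24 scaled RPM in TGFbeta1 cells and 17.8 ± 5.60 in control cells (SD, n = 2 each). CPSF7, a subunit of cleavage factor I, had 4.54 and 5.12 scaled RPM in TGFbeta1 cells, against 7.74 and 7.87 in control cells, and the groups do not overlap (log2 difference -0.60, limma adjusted p = 0.54). CPEB2 had 28 and 24 reads in TGFbeta1 libraries and 3 and 33 in control libraries, and thus its control libraries lay on both sides of the treated ones. YTHDF1, a cytoplasmic reader of m6A, had 70 and 43 reads in TGFbeta1 libraries and 22 and 23 in control libraries, or 19.9 and 12.2 scaled RPM in TGFbeta1 cells and 12.2 and 8.62 in control cells (log2 difference 0.56, limma adjusted p = 0.53). RBMS1, whose 5 sites are all in the 3′ UTR, averaged 15.6 ± 0.024 scaled RPM in TGFbeta1 cells and 18.5 ± 5.08 in control cells (SD, n = 2 each). Its let-7 site held 59.7% of the reads, with 39 and 31 reads in TGFbeta1 libraries and 18 and 29 in control libraries. After scaling, the log2 difference at that site was 0.05 (limma adjusted p over sites = 0.96).

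No single site of these genes passed the test either. The limma test across 1059 sites called 75 (7.08%), of which 39 (3.68%) were higher and 36 (3.4%) lower in TGFbeta1 cells, and 0 of the 29 tested member sites. At an unadjusted p under 0.05 there were 3 of 29, against 19.3% of all tested sites (10.5% higher and 8.78% lower): the unmatched MBNL1 site and the coding HNRNPDL site were higher, and the RBM12B let-7 site was lower. The edgeR quasi-likelihood test and DESeq2 called 0 of 29 as well. Both TGFbeta1 libraries lay above both control libraries at 6 of 29 sites, against 23.9% of all tested sites, and below them at 4, against 24.5%. Control replicate 1 had few reads at several of these sites, such as 3 at the unmatched MBNL1 site, 1 at the CPEB2 site and 5 at the DDX21 site. Without control replicate 2 the limma test called those 3 sites higher (adjusted p = 0.00077, 0.040 and 0.036 for MBNL1, CPEB2 and DDX21), with the lone control library assumed to vary like the treated ones.

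**Figure D5:**
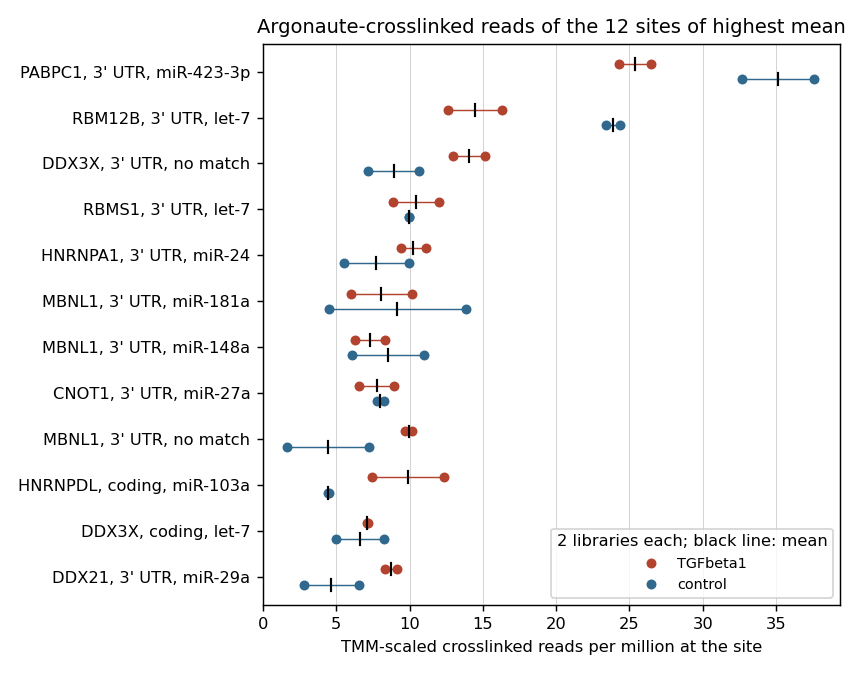
TMM-scaled RPM of crosslinked reads (scaled over sites) in each library for the 12 member sites of highest mean, labelled by gene, region and listed seed match, with group means as black lines. Both TGFbeta1 libraries lie below both control libraries for the leading PABPC1 and RBM12B sites, and above them for the unmatched sites of DDX3X and MBNL1 and those of HNRNPDL and DDX21.

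Further genes of RNA control, outside the name rule, were counted from lists. Of 35 other splicing factors, 27 had a site, 18 were tested and 0 were called, with a median log2 difference of 0.13. Of 46 decay and repression genes, 32 had a site, 19 were tested and 0 were called, with a median of -0.10, and of 14 cleavage and polyadenylation genes 6 had a site, 2 were tested and 0 were called. Of 11 m6A writers, erasers and other readers, 6 had a site, 1 was tested and 0 were called. These counts stand against 3.08% of all tested genes. By region, the other splicing factors had 31.5% of 203 sites in the 3′ UTR and 33.5% in coding sequence. The decay and repression genes had 68.4% of 174 sites in the 3′ UTR and 14.9% in coding sequence, against 37.7% and 41.8% in the RNA processing genes.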

How the data were processed

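PAR-CLIP libraries of HK2 cells were compared, 2 with TGFbeta1 and 2 control. The deposited table gives crosslinked reads and covering reads per site in RPM, scaled to each library's total, per the file headers, and a score per seed, which the authors give as microRNA reads. STAR 2.7.1a, bcl2fastq 2.20.0.422 and bedtools are named in the submitters' processing notes with hg38, and GENCODE release 27 in the file headers; the crosslink caller is not given in the sources used here. Another 4 columns of per-sample values, of no sample in this series, were not used.

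All RPM values were whole multiples of 1 read (100% within 0.1 reads), which gave the reads at each site and each library's depth. Covering reads were 0 wherever a library had no crosslink, so crosslinked reads were analysed. The test was limma 3.58.1 with a variance trend on log2(TMM-scaled RPM + 1), a scale that understates changes of low genes, two-sided, with Benjamini-Hochberg adjustment over all genes or sites kept by edgeR 4.0.16 filterByExpr (minimum count 10). TMM factors, from recovered reads, were 0.665 to 1.39 over genes and 0.613 to 1.51 over sites. R 4.3.3, DESeq2 1.42.0 and Python 3.11.15 were used, and the fit was tested on simulated data, where 0.469% of unchanged genes were called.

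Same-numbered libraries' deviations from group means correlated at 0.131 over genes and 0.117 over sites, with only 2 pairs, so numbers were not taken as pairs. The proximal tubule marker list is not reported here. Members and gene lists were chosen with earlier results of these data known. Named genes are the 12 of highest mean, the highest of each name family, those with an unadjusted p under 0.05, and the genes of the 12 highest sites. Alternatives changed the scaling, test, filter, pseudocount, measure, region and libraries.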

Additional observations from a re-analysis of the deposited data

How the results depend on the processing

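No setting called any of the tested RNA processing genes. All counts here are at a limma adjusted p under 0.05 unless another tool is named. Settings by coverage used covering reads at the sites crosslinked in every library only, with 1756 genes and 3692 sites tested. The number of genes called among all tested was 29 without TMM, 29 by DESeq2, 48 by edgeR (quasi-likelihood, recovered reads), 34 with a pseudocount of 0.25 and 44 without joined names. It was 3 without the variance trend, 4 without the filter, 64 with the replicate block, 84 by coverage, 70 by 3′ UTR sites alone, and 0 to 17 with 1 library left out (11 without TGFbeta1 replicate 1, 17 without TGFbeta1 replicate 2 and 0 without either control replicate, each of the last 2 with 3 RNA processing genes at an unadjusted p under 0.05). DESeq2 gave no adjusted p for 221 genes and 349 sites. Sites called were 28 without TMM, 42 by DESeq2, 25 without the trend, 0 without the filter (with 78 member sites at an unadjusted p under 0.05), 117 with the replicate block, 203 by coverage and 3 to 116 with 1 library left out (3 and 5 without TGFbeta1 replicates 1 and 2, 102 and 116 without control replicates 1 and 2). By the edgeR quasi-likelihood test 82 sites were called. The 78 member sites without the filter were among 589 tested, with 72 higher and 6 lower in TGFbeta1 cells. The share of all 16230 sites at that unadjusted threshold is not given here, so the 78 cannot be set against it. Member sites called were 1 with the replicate block (the unmatched MBNL1 site, log2 difference 1.23, adjusted p = 0.044, against 0.0081 by coverage and 0.41 to 1.98 with 1 library left out), 1 by coverage (the CPEB1 site, -1.50, adjusted p = 0.016) and 0 to 3 with 1 library left out, the 3 being without control replicate 2. The cause of these differences was not tested. The replicate numbers were not taken as pairs, and the block changed no call of a member gene.

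The member share of covering reads was 2.39% at the sites crosslinked in every library. Those were 191 of 589 member sites and 6145 of all 16230 sites, so measure and site set both differ from the shares above. The 3′ UTR share of member sites was 50.3% at sites crosslinked in every library and 57.0% of reads, and the share with a seed match was 71.2% at sites crosslinked in every library and 65.8% in the 3′ UTR.

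Directions of several uncalled genes turned with the setting. Without TMM, which moved the median of all tested genes by -0.47, the log2 differences were -0.49 (CELF1), -0.26 (DDX3X), -0.26 (DDX5), -0.46 (HNRNPA1), -0.077 (HNRNPA2B1), -0.49 (HNRNPF) and -0.46 (MBNL1), and at sites -0.18 (HNRNPA1 miR-24), -0.46 (DDX3X let-7) and -0.57 (RBMS1 let-7). By coverage they were 0.16 (CNOT1), -0.11 (DDX3X), 0.57 (DHX15), 0.20 (HNRNPU), -0.052 (MBNL1) and 0.19 (SF3B1), and at sites 0.16 (MBNL1 miR-181), -0.22 (DDX3X let-7) and -0.10 (RBMS1 let-7). Without the filter they were 0.028 (CNOT1), 0.088 (HNRNPU), 0.10 (SF3B1), 0.080 (MBNL1 miR-181 site) and 0.041 (CNOT1 site). The edgeR values were -0.011 (CELF1) and -0.033 (CPEB2), and by 3′ UTR sites HNRNPU had 0.40. With 1 library left out, the ranges were -0.16 to 0.20 (CELF1), -0.41 to 0.20 (CNOT1), -0.67 to 1.62 (CPEB2), -0.0020 to 0.55 (DDX3X), -0.76 to 0.44 (DHX15), -0.22 to 0.35 (HNRNPA1), -0.22 to 0.30 (HNRNPF), -0.35 to 0.26 (HNRNPU), -0.052 to 0.19 (MBNL1), -0.46 to 0.066 (RBMS1) and -0.25 to 0.19 (SF3B1). For sites they were -0.73 to 0.69 (MBNL1 miR-181), -0.54 to 0.22 (MBNL1 miR-148), -0.19 to 0.43 (DDX3X let-7), -0.25 to 0.16 (CNOT1 miR-27) and -0.16 to 0.26 (RBMS1 let-7). RBM12B, SRSF11, CPEB1, PABPC1 and CPSF7 were lower, and HNRNPDL, DDX21 and YTHDF1 higher, in TGFbeta1 cells under every setting run, but some values came near 0. By coverage PABPC1 had -0.013 and CPSF7 -0.0066, and without TMM DDX21 had 0.071 and YTHDF1 0.055. With 1 library left out, CPEB1 ranged from -1.75 to -0.61, SRSF11 from -1.83 to -0.76, DDX21 from 0.14 to 0.99 and YTHDF1 from 0.24 to 0.89.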
